A study of Rattus norvegicus with 8 samples.

Results

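Solute carriers are membrane proteins that move ions, sugars, amino acids, nucleotides, metals and vitamins into and out of cells and organelles. On the rat array used here, 224 genes had a symbol that starts with Slc and a digit on a probe set with a single annotated gene, of 10411 genes annotated in that way. The genes Slc12a2, Slc16a1, Slc16a3 and Slc25a20 were left out, and each of the 224 was read from the probe set with its highest mean over the 8 arrays. By family number and textbook substrate they fell into 14 glucose and sugar transporters, 40 amino acid transporters, 29 mitochondrial carriers of family Slc25, 61 ion and metal transporters and 80 others. Of the others, 2 (Slc4a1ap and Slc7a6os) carry a transporter's name but are not carriers.

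The tissue was extraocular muscle of adult Rattus norvegicus, which turns the eye. The muscle has an orbital layer on the side of the bony orbit and a global layer on the side of the eyeball. Each layer was cut from sections by laser, its RNA was amplified by a T7 method, and 4 captures of each layer were hybridised to 1 array each. The labels give no treatment or genotype, strain, sex or exact age, and do not tie captures to animals. If some captures of a layer came from the same animal, p-values over captures can be too small, and they otherwise reflect no more than how much these captures vary. The comparison asks which carriers differ in transcript level between the layers.

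In muscle, the glucose carrier Slc2a4 (GLUT4) moves to the fibre surface in response to insulin and contraction. Carriers of the inner mitochondrial membrane exchange ADP for ATP, import phosphate and pass metabolites between cytosol and matrix. Bicarbonate and sodium-calcium exchangers of the surface membrane keep pH and calcium in range, and amino acid carriers supply glutamine and other substrates for protein synthesis and energy.

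The promoters of 4 carriers on which the results turn are shown, to set a pair of carriers of the same substrate that differed in their response (Slc25a5 and Slc25a4) beside the ion carriers that were furthest above and below between the layers (Slc4a3 and Slc8a1). Each is the 250 bases before the annotated start, taken from RefSeq on build GRCr8, and capitals mark E boxes (CANNTG, the same on both strands), the motif that myogenic transcription factors bind.
Slc25a5 promoter, chrX:120897366-120897615, plus strand: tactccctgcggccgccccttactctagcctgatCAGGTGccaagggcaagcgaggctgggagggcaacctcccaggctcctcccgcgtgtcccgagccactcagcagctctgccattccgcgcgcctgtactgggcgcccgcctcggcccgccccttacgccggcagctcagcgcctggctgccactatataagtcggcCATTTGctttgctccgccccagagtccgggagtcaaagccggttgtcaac
Slc25a4 promoter, chr16:52805271-52805520, plus strand: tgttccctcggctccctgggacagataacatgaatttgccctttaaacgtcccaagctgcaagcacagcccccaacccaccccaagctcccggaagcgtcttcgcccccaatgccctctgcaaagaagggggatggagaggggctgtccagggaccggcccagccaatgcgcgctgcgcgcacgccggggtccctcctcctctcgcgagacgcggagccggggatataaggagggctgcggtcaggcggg
Slc4a3 promoter, chr9:84485405-84485654, plus strand: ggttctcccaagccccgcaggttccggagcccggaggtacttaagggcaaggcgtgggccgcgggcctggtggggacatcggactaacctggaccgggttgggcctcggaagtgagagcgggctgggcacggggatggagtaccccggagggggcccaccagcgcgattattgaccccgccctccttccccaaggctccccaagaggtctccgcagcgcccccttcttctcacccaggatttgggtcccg
Slc8a1 promoter, chr6:19023309-19023558, plus strand: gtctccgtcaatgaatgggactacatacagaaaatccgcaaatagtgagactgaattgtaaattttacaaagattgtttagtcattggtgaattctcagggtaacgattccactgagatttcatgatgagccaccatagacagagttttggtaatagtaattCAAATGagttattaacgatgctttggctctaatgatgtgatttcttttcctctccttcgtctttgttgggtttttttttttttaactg
The Slc25a5 promoter held 2 E boxes and 3 GC boxes (GGGCGG, either strand), and the Slc25a4 promoter held 0 E boxes, 0 GC boxes and 2 CCAAT boxes (CCAAT, either strand). In the Slc4a3 window there were 0 E boxes and 1 GC box, and in that of Slc8a1 there were 1 E box and 1 CCAAT box. The GC content was 66.8%, 65.6% and 68.4% in the first 3 and 35.2% in Slc8a1. Of 33469 rat promoter windows of that length, 65.5% held an E box, 30.5% a GC box and 34% a CCAAT box. Among 122 windows of 111 tested carriers, the shares were 56.6%, 58.2% and 35.2%. These are matches of letters and no evidence of binding.

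Values are intensities on a linear scale that the authors had brought to a common mean per array, and median intensities over all probe sets lay between 58.8 and 66.3. The precision of every value is set by the 4 arrays per layer. Differences are log2(intensity + 1) of the orbital minus the global layer, and a carrier was called when its adjusted p from limma passed 0.05 after Benjamini-Hochberg adjustment over 9520 tested probe sets, of which 705 were called (7.41%). The highest bacterial control probe set read between 17.7 and 41.5 on the 8 arrays, highest in global capture 4. Of the 224 carriers, 133 passed the filter on dim values (a mean intensity of about 39.4) and were tested, 91 were not, and 21 lay under the control level on all 8 arrays. Skeletal muscle markers were all present, with 9 of 9 tested and 1 called higher (Mb, 0.82, adjusted p = 0.0029), and had a summed intensity of 56732.8 to 82334.2 in the global and 54535 to 79168 in the orbital captures. Between captures, r over the tested carriers was 0.907 to 0.951 within a layer and 0.865 to 0.937 between layers, across genes that are not independent replicates.

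Of the 133 tested carriers, 8 were called higher in the orbital layer and 4 lower. The 12 together are 9.02% of the tested carriers, beside 7.68% of all 7163 tested genes called in either direction, 4.09% called higher and 3.59% called lower. The share of carriers is close to that of all genes. Orbital values lay wholly above the global ones in 11 carriers and wholly below in 6, so that 17 (12.8%) did not overlap between layers. Over all tested genes 7.48% lay above, 6.8% below and 14.3% in either direction. The median difference of the tested carriers was 0.086 on the log2 scale, against 0.024 over all tested genes. Of the carriers 79 of 133 were above 0, beside 3813 of 7163 tested genes. All 12 called carriers were without overlap between layers. Among them, Slc12a4 and Slc22a3 read near or under the filter on dim values in the global layer, and passed it through their orbital values. In bulk samples, fewer cells of a type and less RNA per cell cannot be told apart.

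**Figure D1:**
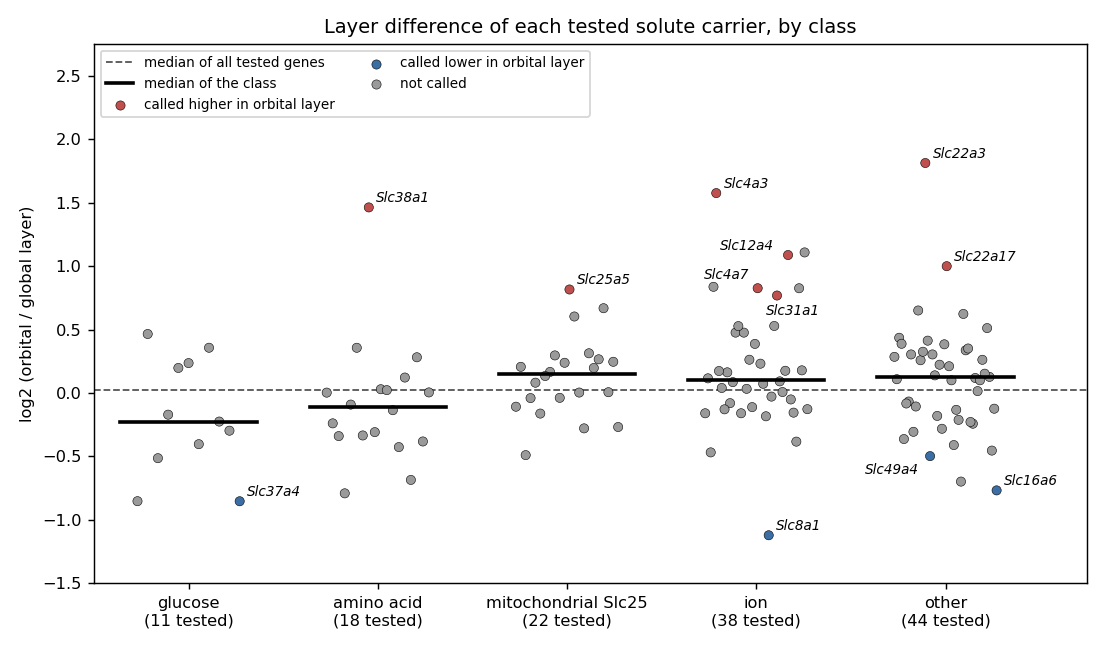
Each point is a tested carrier, with its layer difference (log2 of orbital over global) on the y axis and its class on the x axis, and red and blue points were called higher or lower in the orbital layer at an adjusted p of 0.05. Solid lines are class medians and the dashed line is the median of all tested genes, 0.024. Class medians lie between -0.22 (glucose) and 0.15 (mitochondrial), and the 12 named points were called.

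Cell types other than muscle were read from marker lists on the same arrays. The smooth muscle and pericyte markers summed to 1009.5 to 1066.7 in the global and 769.2 to 924.2 in the orbital captures, without overlap, and 1 of their 5 tested members, Myh11, was called lower. Without Myh11 the sums overlapped (530.1 to 660.3 and 639.5 to 716.4). The median difference of the 5 tested members, Myh11 included, was -0.047. Tagln was wholly lower in the orbital layer without being called (-0.73, adjusted p = 0.098), while Rgs5 (0.26) and Des (0.29) were above 0. Schwann cell and nerve markers summed to 1356.5 to 4555.2 in the global and 2471.4 to 4828.4 in the orbital captures, with 1 of 5 tested called higher, and endothelial markers to 977.3 to 1163.7 and 962.6 to 1496.2, with 1 of 7 called higher. Fibroblast and matrix markers, 0 of 7 called, ranged from 3880.5 to 7170 and from 5235.6 to 8041, and macrophage markers, 0 of 5 called, from 879.7 to 1877.6 and from 915 to 1269.3. Photoreceptor markers, 0 of 3 called, ranged from 36.7 to 922.9 and from 382.9 to 1609.9, and were highest in the global layer in captures 1 and 4. All 3 had differences above 0 but overlapped between layers (Sag 2.62, Pdc 1.39 and Gnat1 1.16). The median difference of the tested markers was 1.39 for photoreceptors, 0.46 for nerve, 0.16 for endothelium, 0.23 for fibroblasts and 0.033 for macrophages. Among the nerve markers, Nefm was called (1.23) and Mbp (1.02) was not. Red cell markers (288.9 to 1118 and 254 to 741.6), adipocyte markers (217.5 to 458.7 and 208.4 to 323.9) and gland markers (62.2 to 170.4 and 65 to 142.4) had 0 members called, and the defining genes Lep, Itgam and Aqp5 lay under the control level on all arrays. The part of these cells in the carrier results was not tested. With global captures 2 and 3 alone, which are the global captures with the low photoreceptor sums, the gap to the orbital captures is wider, so that fit does not take these cells out of the comparison. It called 9 of the 12 again, and Slc16a6 (-0.67), Slc31a1 (0.77) and Slc49a4 (-0.49) kept their sign without being called, where 3.64% of all tested genes were called. The Gapdh 3′ to 5′ ratio, a measure of RNA shortening, was 12.9 and 8.64 in orbital captures 3 and 4 and 5.35 to 6.47 in the other 6 captures. With orbital captures 1 and 2 alone, 8 of the 12 were called again, where 3.87% of all tested genes were called. The other 4 had differences of 0.99 (Slc12a4), -0.65 (Slc16a6), 0.84 (Slc31a1) and -0.50 (Slc49a4).

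Among the glucose and sugar transporters, 1 of 11 tested was called, lower in the orbital layer, and 0 higher. The share called was 9.09%, beside 7.68% of all tested genes. The class median was -0.22, with 4 of 11 above 0, and it was 0.22 with the filter on dim values set at the 60th percentile. That gene was Slc37a4, which carries glucose-6-phosphate into the endoplasmic reticulum. Its intensities were 444.2, 345.6, 558.2 and 417.2 in global captures 1 to 4 and 237.8, 228.6, 252.3 and 243.3 in the orbital captures. Every orbital capture was below every global one, and the orbital captures lay close together (240.5 ± 9.93 against 441 ± 88.3, SD, n = 4 each). The difference was -0.85 (SE 0.15, adjusted p = 0.0033), a 1.81-fold lower orbital level. For its relative Slc37a1, also a sugar phosphate carrier, the difference was -0.22 (95% interval -0.70 to 0.25).

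The insulin-responsive carrier Slc2a4 read 711, 756.6, 857.7 and 830 in the global captures and 945.2, 812.2, 1053.8 and 1274.1 in the orbital captures. Orbital capture 2 lay inside the global range and the other 3 above it. The difference of 0.36 (95% interval 0.04 to 0.67) did not pass adjustment (adjusted p = 0.17), and a dimmer Slc2a4 probe set gave -0.29 (95% interval -0.75 to 0.16), of the opposite sign. Slc2a1 (GLUT1), the carrier of basal glucose uptake, differed by 0.24 (95% interval -0.35 to 0.83). Of the Slc2 family 6 of 7 members were tested and 0 called, with a median of -0.35.

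The myo-inositol carrier Slc2a13 differed by -0.85 (95% interval -1.5 to -0.20, adjusted p = 0.11; -0.42 on a second probe set) and overlapped between layers because global capture 3, at 67.5, lay among the orbital captures (57.5, 105.3, 66.7 and 39.8). Without global capture 3 it was called (-1.11, adjusted p = 0.039), as it was without orbital capture 2 (-1.09, adjusted p = 0.046), and the class then had 2 called members. The fructose carrier Slc2a5 (-0.40), Slc2a8 (-0.51), the neuronal carrier Slc2a3 (-0.30), Slc45a3 (-0.17), Slc50a1 (0.20) and Slc45a4 (0.47, adjusted p = 0.16) were not called. Slc5a1, Slc5a2 and Slc2a2, carriers known from gut, kidney and liver, were too dim to be tested.

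Genes that move Slc2a4 to the surface or control that movement were counted from a list of 40, of which 36 were on the array and 30 tested. Of these 30, 0 were called higher and 3 lower in the orbital layer (10%), beside 3.59% of all tested genes called lower and 7.68% called in either direction, and the median was -0.018. Sort1, a sorting receptor of the GLUT4 storage vesicle, was lower by a difference of -0.91 (adjusted p = 0.0030). Rab10, a small GTPase of its exocytosis, had -0.50 (adjusted p = 0.0189), and Prkaa2, the catalytic AMP kinase subunit of muscle, -0.88 (adjusted p = 0.0312), with values that overlapped between the layers.

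Of the amino acid transporters 18 of 40 were tested, and 1 was called higher and 0 lower (5.56% called, beside 7.68% of all tested genes). The class median was -0.11. Slc38a1, a sodium-coupled carrier of glutamine and other small neutral amino acids, read 371.1, 382.6, 352 and 235.6 in the global captures and 1229, 646, 960 and 897.9 in the orbital captures. The lowest orbital capture exceeded the highest global capture by a wide margin, and orbital capture 1 was the highest. The layer means were 933 ± 239 (orbital) and 335 ± 67.7 (global; SD, n = 4 each), a 2.76-fold higher orbital level and a difference of 1.46 (SE 0.20, adjusted p = 0.00066). A second, dimmer Slc38a1 probe set differed by 0.81 (adjusted p = 0.052).

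The paralog Slc38a2 carries the same kinds of amino acid. Its intensities were 1341.2, 1616.8, 1576.7 and 1694.8 in the global and 1312.1, 1476.6, 1648.2 and 1830.7 in the orbital captures, and the ranges overlapped almost fully. The difference was 0.0032 (95% interval -0.29 to 0.29). Within each array, log2 of Slc38a1 over Slc38a2 was higher in the orbital layer by 1.46, without overlap (exact permutation test, two-sided, adjusted p = 0.0449 over 11 pairs of related carriers). The smallest unadjusted p that 4 against 4 captures can give is 0.0286. Every pair without overlap had that smallest p, and so the same adjusted p of 0.0449. The pairs were formed around called carriers after their values were seen, so these tests are no independent support. This holds for every such ratio given below. All 7 measured Slc38 members were tested, and the other 6 differed by -0.43 (Slc38a4) to 0.36 (Slc38a3).

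Other amino acid carriers known from muscle were not called. Slc1a5, a glutamine exchanger, read 145.7, 214.4, 131.3 and 166.9 in the global and 39.5, 103, 124.7 and 147.2 in the orbital captures. Orbital capture 1 was far below the rest, and the difference of -0.79 (95% interval -1.5 to -0.08, adjusted p = 0.18) was -0.38 without that capture. The taurine carrier Slc6a6 had -0.38 (95% interval -0.91 to 0.15), with orbital captures between 342.1 and 884.4 and global captures between 662.8 and 819.9. Slc3a2, the heavy chain that pairs with several light chains, had -0.24 (95% interval -0.58 to 0.10), and Slc7a6, such a light chain, -0.33. The light chain Slc7a5 was too dim to be tested. Of the Slc3 and Slc7 families, 4 of 12 members were tested with 0 called, of Slc1 3 of 5 with 0 called, and of the Slc6 family as a whole 6 of 14 with 0 called.

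**Figure D2:**
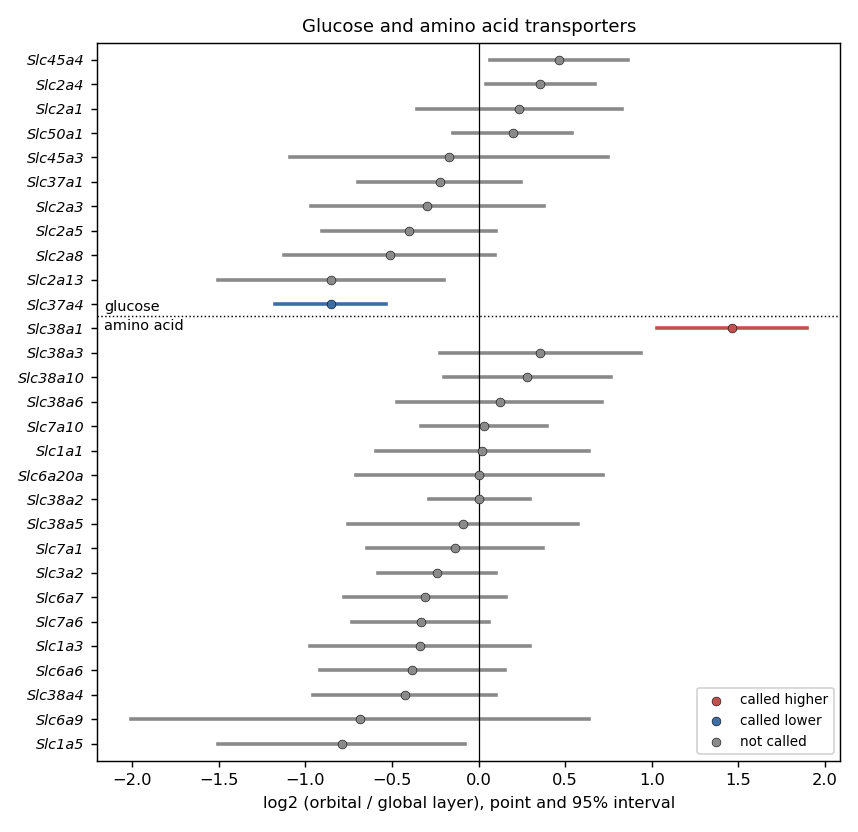
Layer difference (log2 of orbital over global) of the tested glucose and amino acid transporters, with 95% intervals from limma and n = 4 captures per layer. Slc38a1, at 1.46, and Slc37a4, at -0.85, were called, and the other intervals are grey.

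The mitochondrial carriers had 22 of 29 members tested, 1 called higher and 0 lower (4.55% called, beside 7.68% of all tested genes). The class median of 0.15 was the highest of the 5 classes, and the differences ran from -0.49 (Slc25a25) to 0.82. Of the 22, 15 were above 0, beside 3813 of 7163 tested genes. The called gene was Slc25a5, the ADP/ATP carrier known from tissues other than adult striated muscle. Its intensities were 713.8, 658.1, 557.1 and 818.1 in the global and 1279.1, 1090.8, 1235.8 and 1195 in the orbital captures. The orbital captures were all higher and lay within a narrow band (1200 ± 80.6 against 687 ± 109, SD, n = 4 each), a 1.76-fold level and a difference of 0.82 (SE 0.13, adjusted p = 0.0024).

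Slc25a4, the ADP/ATP carrier that predominates in heart and skeletal muscle, read 9371.6, 9303.8, 10075.1 and 10695.1 in the global and 10951.2, 7764, 9214.6 and 12210 in the orbital captures. The lowest and the highest of the 8 values were both orbital. The difference was 0.0065 (95% interval -0.34 to 0.35). Within each array log2 of Slc25a5 over Slc25a4 was -3.71, -3.82, -4.17 and -3.71 in the global captures and -3.10, -2.83, -2.90 and -3.35 in the orbital captures. The shift was 0.81, without overlap (exact permutation test, two-sided, adjusted p = 0.0449 over the 11 pairs). As with the other pairs, this ratio was formed around a called carrier and is no independent support. Their promoters, printed above, differ in that the E and GC boxes lie in the Slc25a5 window and the CCAAT boxes in the Slc25a4 window. Any bearing of these motifs on the layer difference was not tested.

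Carriers of the main mitochondrial fluxes were not called. The phosphate carrier Slc25a3 read between 4251.8 and 5244.3 in the global and between 4542.4 and 6488.4 in the orbital captures, a difference of 0.20 (95% interval -0.11 to 0.50). The oxoglutarate carrier Slc25a11, of the malate-aspartate shuttle, differed by 0.30 (95% interval 0.01 to 0.58, adjusted p = 0.21), and 2 orbital captures (1396.1 and 1309.6) lay under the highest global one (1426.7). The other carrier of that shuttle, the aspartate-glutamate exchanger Slc25a12, differed by -0.038 (95% interval -0.30 to 0.23), and its relative Slc25a13 was too dim to be tested. Slc25a36, a carrier of pyrimidine nucleotides, had -0.28 (95% interval -0.56 to 0.01, adjusted p = 0.24). The uncoupling-protein relatives Slc25a14 (0.60) and Slc25a30 (0.67) had wide intervals that included 0.

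**Figure D3:**
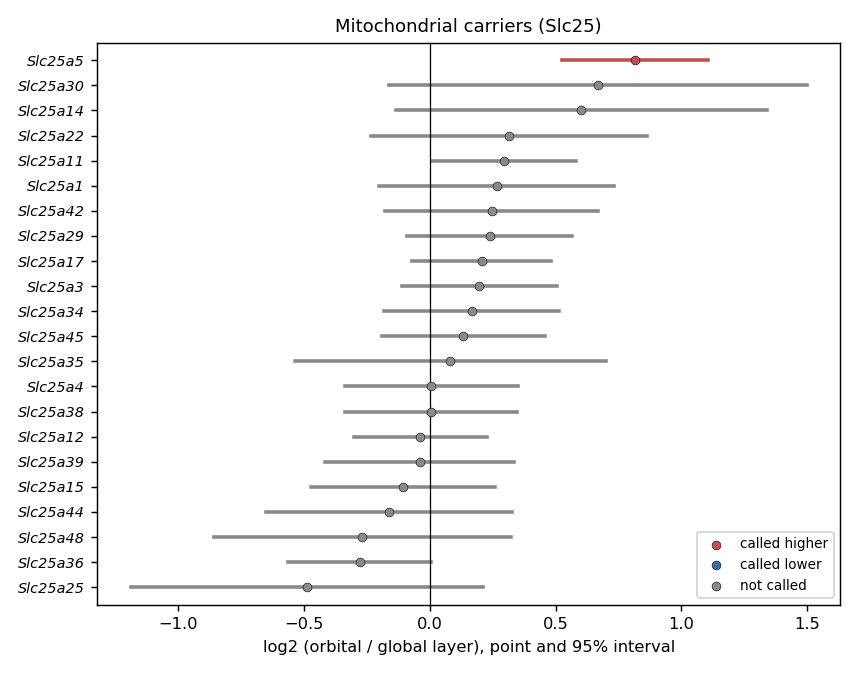
Layer difference (log2 of orbital over global) of the 22 tested mitochondrial carriers, with 95% intervals from limma and n = 4 captures per layer. The interval of Slc25a5 lies wholly above those of Slc25a4 and Slc25a12, which include 0.

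Ion and metal transporters had 38 of 61 members tested, 4 called higher and 1 lower, with a median of 0.10. The share called was 13.2%, beside 7.68% of all tested genes. The called members were 2 bicarbonate carriers, a potassium-chloride cotransporter, a copper importer and a sodium-calcium exchanger. Without global capture 3, or without orbital capture 1, the class had 3 called members in place of 5. In these fits 4.96% and 5.53% of all tested genes were called.

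Slc4a3 (AE3), the chloride-bicarbonate exchanger of excitable tissues, had the smallest p of all carriers. It read 84.9, 100.8, 88.5 and 111.5 in the global and 265.9, 299.7, 263.7 and 325.8 in the orbital captures. No orbital value came near the global ones, and the spread within each layer was small (289 ± 29.7 against 96.4 ± 12.1, SD, n = 4 each). The orbital level was 2.98-fold higher, a difference of 1.58 (SE 0.15, adjusted p = 4.4e-05), and Slc4a3 was called under each of 26 settings that could be fitted. Its promoter, printed above, has no E box in the 250 bases, and any bearing of this on the layer difference was not tested.

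Slc4a7 (NBCn1), a sodium-bicarbonate cotransporter that brings base into the cell, read 298.5, 263.1, 209.2 and 235.8 in the global and 399.3, 526.8, 397.6 and 460.5 in the orbital captures. All orbital captures were above all global ones, a difference of 0.83 (SE 0.15, adjusted p = 0.0038). Across the orbital captures Slc4a7 ranked as the photoreceptor marker sums did (417.7, 1609.9, 382.9 and 978.5, in the same order of captures). Across the global captures it did not (sums of 922.9, 36.7, 98.2 and 751.8). The part of photoreceptor cells in this result was not tested. A second, dimmer probe set of Slc4a7 differed by -0.064 (95% interval -0.56 to 0.43), and with the mean of both probe sets the gene was not called (0.38, adjusted p = 0.16). The exchanger Slc4a2 differed by 0.086 (95% interval -0.49 to 0.66), and log2 of Slc4a3 over Slc4a2 within an array was higher in the orbital layer by 1.49, without overlap (exact permutation test, two-sided, adjusted p = 0.0449). For Slc4a7 over Slc4a2 the shift was 0.74 and the ranges overlapped (exact permutation test, adjusted p = 0.0786), and with a pseudocount of 64 that ratio passed (0.65, adjusted p = 0.0393). That pseudocount is above every Slc4a2 value (32 to 62), which damps the part of Slc4a2 in the ratio. Slc4a4, another sodium-bicarbonate cotransporter, differed by -0.38 (95% interval -1.06 to 0.30).

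Slc8a1 (NCX1), the exchanger that moves calcium out of the cell against sodium, was the ion carrier called lower. Its intensities were 202.1, 196.7, 246.4 and 150.3 in the global and 82.4, 109.1, 82.2 and 87 in the orbital captures. No orbital capture reached the lowest global one, and the means were 90.2 ± 12.8 and 199 ± 39.3 (SD, n = 4 each), a 2.17-fold lower orbital level (difference -1.12, SE 0.18, adjusted p = 0.0019). NCX1 is also known from smooth muscle. Its marker Myh11 was lower in the orbital layer (-1.39, adjusted p = 0.0027). The marker Tagln was wholly lower without being called (-0.73, adjusted p = 0.098), and Acta2 had -0.047. Rgs5 had 0.26, and Des, which is also on the skeletal muscle list, had 0.29. Too dim to be tested were Cnn1 (mean 20.15 orbital, 40.25 global) and Pdgfrb (34.3 and 31.8). These other 6 markers summed to 639.5 to 716.4 in the orbital and 530.1 to 660.3 in the global captures. The part of smooth muscle in this result was not tested. The mitochondrial exchanger Slc8b1 differed by 0.092, and the ratio of Slc8a1 to Slc8b1 within an array shifted by -1.21, without overlap (exact permutation test, two-sided, adjusted p = 0.0449). Slc8a3, the exchanger known from skeletal muscle, read 20.1 to 71 in the global and 28.2 to 51.3 in the orbital captures, a difference of -0.051 (95% interval -0.83 to 0.73).

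The potassium-chloride cotransporter Slc12a4 (KCC1) was dim. It read 36.6, 34.8, 18.7 and 40 in the global and 71.7, 55.9, 61.2 and 85.1 in the orbital captures, with 2 global captures under the control level of their array. The global mean of 32.5 lay under the filter of about 39.4, so the gene was tested only through its orbital values (mean 68.5). The orbital captures were all higher, a difference of 1.09 (SE 0.28, adjusted p = 0.031), but it was no longer called on leaving out global capture 1 or 3, or orbital capture 1, 3 or 4 (adjusted p up to 0.0946), with no filter on dim values, and with orbital captures 3 and 4 averaged as 1 sample (adjusted p = 0.066). Its relative Slc12a7 (KCC4) differed by 0.53 (adjusted p = 0.065). Slc12a7 was called without global capture 4, with global captures 2 and 3 alone, and with the filter at the 60th percentile. The ratio of the pair overlapped between layers (shift 0.56, exact permutation test, adjusted p = 0.0943).

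Slc31a1 (CTR1), the copper importer of the cell surface, read 141, 115.3, 95.8 and 79.6 in the global and 197, 181.8, 208.2 and 142.2 in the orbital captures. The lowest orbital value was just above the highest global value, a difference of 0.77 (SE 0.19, adjusted p = 0.0285). It was no longer called on leaving out global capture 3 or 4, or orbital capture 1, 2 or 3 (adjusted p up to 0.0886), and with eBayes without an intensity trend (adjusted p = 0.051). A second probe set gave 0.59 (95% interval 0.06 to 1.11, adjusted p = 0.18), and its relative Slc31a2 had 0.18 (95% interval -0.17 to 0.52).

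Among metals and phosphate, no zinc carrier was called: 15 of 17 members of Slc30 and Slc39 were tested and 0 passed, with a median of 0.073, and 1 of them, Slc30a4, was wholly higher in the orbital captures (1.11, 95% interval 0.14 to 2.07, adjusted p = 0.17). The magnesium carrier Slc41a1 read 400.9, 416.8, 402.5 and 471.4 in the global and 563.4, 632.6, 478.6 and 697.2 in the orbital captures. It did not overlap between layers but missed the threshold (0.48, 95% interval 0.18 to 0.77, adjusted p = 0.054). Slc41a1 was called without orbital capture 3, with those of orbital captures 3 and 4 averaged, with array weights and with the filter at the 60th percentile. The related Slc41a3 had the same difference, 0.48 (95% interval -0.01 to 0.96), with orbital capture 4 at 1535.2 far above the other 3 (696.1 to 773.9). The phosphate importers Slc20a1 (0.18, 95% interval -0.15 to 0.51) and Slc20a2 (-0.47, 95% interval -0.83 to -0.11, adjusted p = 0.12) had opposite signs, and Slc20a2 was called without global capture 2. Slc30a9, a zinc transporter, had -0.16. Of the anion exchangers of family Slc26, 0 of 6 members were bright enough to be tested, and of the sodium-proton exchangers of Slc9, 2 of 5 were, with 0 called.

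**Figure D4:**
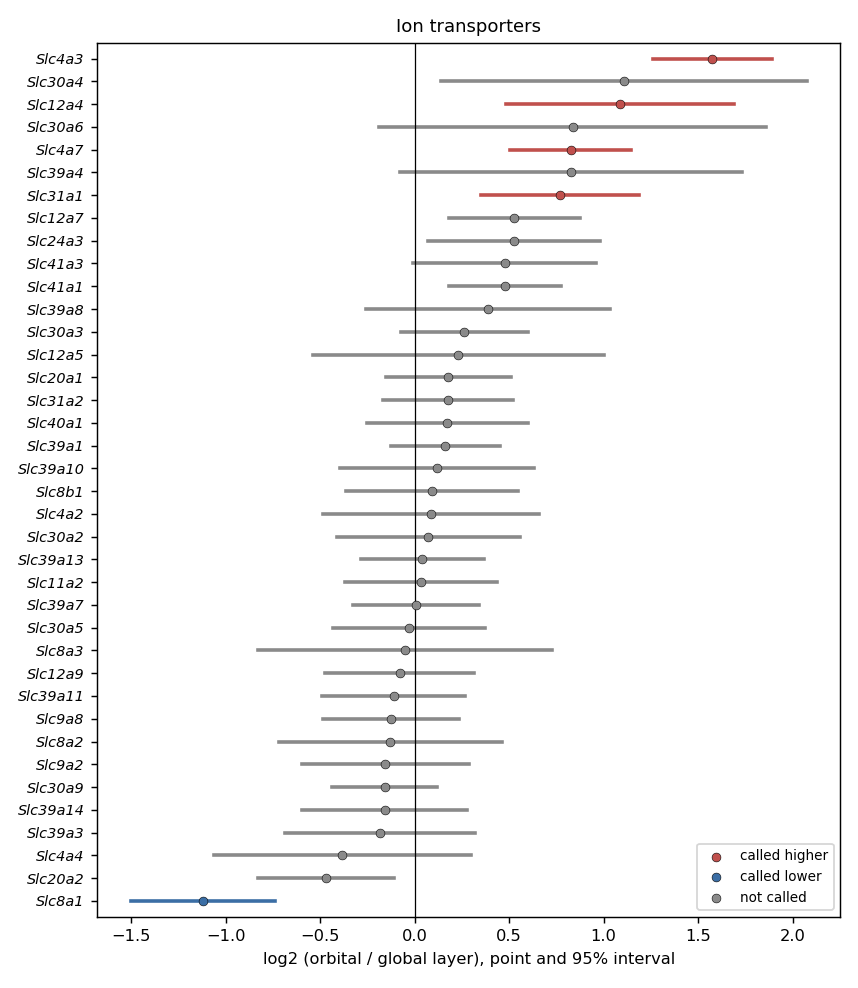
Layer difference (log2 of orbital over global) of the 38 tested ion and metal transporters, with 95% intervals from limma and n = 4 captures per layer. Slc4a3 stands highest at 1.58 and Slc8a1 lowest at -1.12, and the 5 coloured members were called.

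The other carriers had 44 of 80 members tested, 2 called higher and 2 lower, with a median of 0.12. The share called was 9.09%, beside 7.68% of all tested genes. Both carriers called higher belong to the organic ion family Slc22, in which 7 of 14 members were tested. Slc22a3 (OCT3), a carrier of monoamines and other organic cations, read 44.6, 51.1, 19.5 and 48.3 in the global and 185.4, 102.6, 195.4 and 95.3 in the orbital captures. Orbital captures 1 and 3 were above 2 and 4, and all exceeded the global captures, of which capture 3 lay under the control level. The orbital mean was 145 ± 53.0 against 40.9 ± 14.5 (SD, n = 4 each), a difference of 1.81 (SE 0.33, adjusted p = 0.0039) and the largest among the tested carriers. The global values lay close to the filter of about 39.4, so Slc22a3 passed it mainly through its orbital values. Over the other settings the difference ranged from 0.97 to 2.11.

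Slc22a17, a receptor of lipocalin-2 that binds the iron-carrying protein at the cell surface, read 193.9, 149.6, 121.1 and 179.9 in the global and 293.7, 404.8, 294.8 and 291.7 in the orbital captures. Orbital capture 2 stood above the other 3, which lay close together, and the difference was 0.999 (SE 0.17, adjusted p = 0.0033). The carnitine importer Slc22a5 differed by 0.12 (95% interval -0.25 to 0.49). Within arrays, the ratios of Slc22a3 and of Slc22a17 to Slc22a5 shifted by 1.69 and 0.88, both without overlap (exact permutation tests, two-sided, adjusted p = 0.0449 each).

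Slc16a6, a member of the monocarboxylate carrier family, was called lower. It read 523.6, 412.6, 468.2 and 478.6 in the global and 323.5, 276.7, 252.9 and 253.4 in the orbital captures, a difference of -0.77 (SE 0.13, adjusted p = 0.0031) with all orbital values below the global ones. A second, dimmer probe set gave -0.054 (95% interval -0.48 to 0.37), and with the mean of both the gene was not called (-0.41, adjusted p = 0.106). Within arrays the ratio to Slc16a12 of the same family shifted by -0.78, without overlap (exact permutation test, two-sided, adjusted p = 0.0449). Slc16a12 was dim (mean 42.4) and differed by 0.015, so this ratio repeats the change of the brighter Slc16a6 probe set.

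Slc49a4, a transporter of the lysosomal membrane, read 382.9, 344.8, 401 and 370.1 in the global and 249.4, 280.9, 245.8 and 285.5 in the orbital captures. The layers did not overlap, and the difference was the smallest of those called, -0.50 (SE 0.12, adjusted p = 0.0246). It missed the threshold when global capture 1 or 3, or orbital capture 1 or 3, was left out (adjusted p up to 0.0740), and with eBayes without an intensity trend (adjusted p = 0.054).

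Of the other carriers known from muscle, the creatine importer Slc6a8 had 0.26 (95% interval -0.06 to 0.59), the fatty acid carrier Slc27a1 0.29 (95% interval -0.09 to 0.66) and the nucleoside carrier Slc29a1 0.34 (95% interval -0.12 to 0.79). None of these 3 was called. A further 3 members were separated between layers without being called. They were Slc5a6, the sodium-dependent multivitamin carrier (0.62, adjusted p = 0.061), Slc18a2, the vesicular monoamine carrier (-0.70, adjusted p = 0.12), and Slc35b4, a nucleotide sugar carrier (-0.18, adjusted p = 0.40). Slc5a6 was called without orbital capture 3, with array weights and with the filter at the 60th percentile. The Golgi and reticulum carriers of nucleotide sugars (Slc35) had 10 of 12 members tested and 0 called, with a median of -0.15. Among them Slc35a1, the CMP-sialic acid carrier, had -0.31 (adjusted p = 0.20). Slc4a1ap, which is not a carrier, had -0.28 (adjusted p = 0.30).

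**Figure D5:**
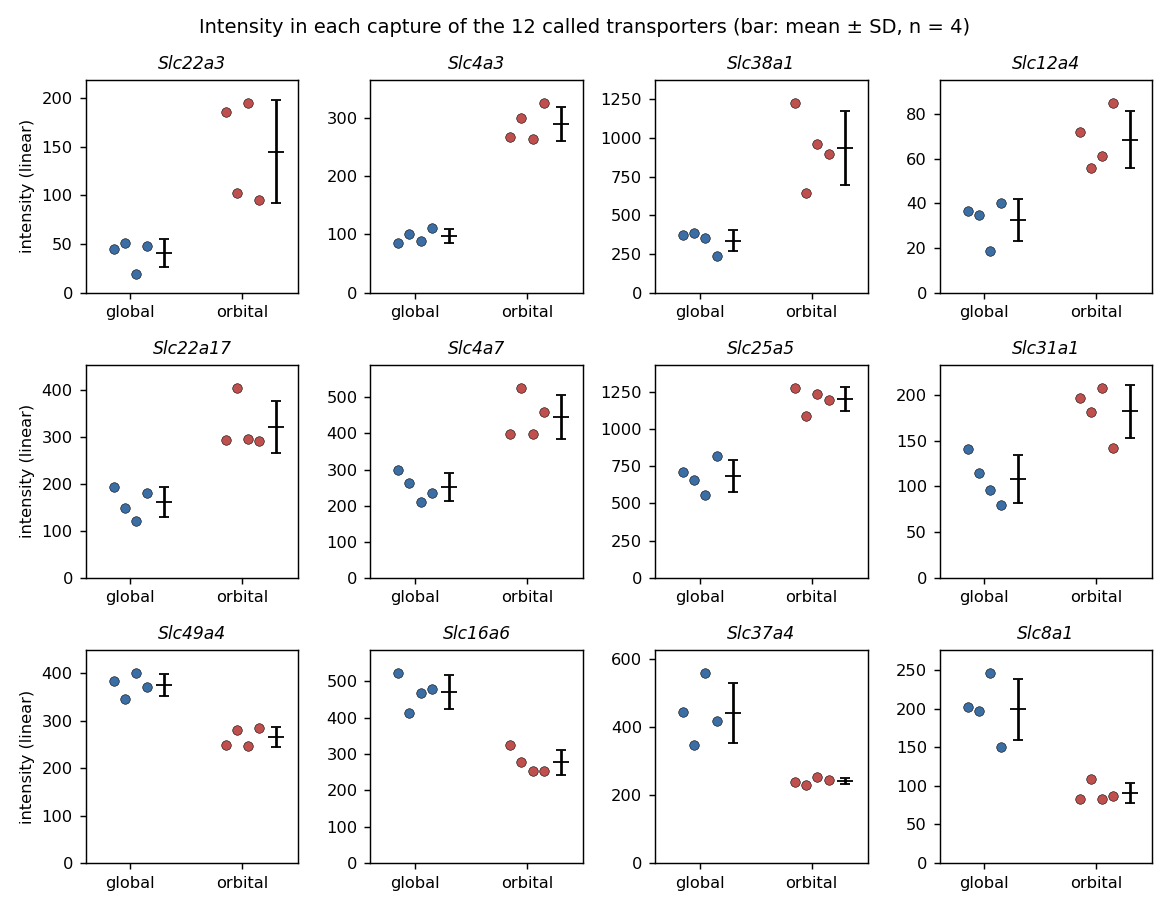
Intensity (linear scale from 0) of the 12 called carriers in each of the 4 global and 4 orbital captures, with points for captures and bars for the mean with its SD. In each panel the points of the layers do not overlap, as for Slc4a3 (84.9 to 111.5 against 263.7 to 325.8) and Slc8a1 (150.3 to 246.4 against 82.2 to 109.1).

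Titles of the captures begin with R2 or R3, 2 captures of each layer under each, and the labels do not say what the prefix stands for. The 12 called carriers had the same sign under both prefixes. For Slc38a1 the difference was 1.24 under R2 and 1.69 under R3, for Slc4a3 it was 1.6 and 1.551, for Slc25a5 it was 0.78 and 0.85, and for Slc8a1 it was -1.06 and -1.18. With limma's interaction term, 0 of 9520 probe sets (0%) had a layer difference that changed with the prefix at an adjusted p of 0.05. At an unadjusted p of 0.05, 290 (3.05%) did, among them 6 tested carriers. Over the 8 fits that each left out 1 capture, 9 of the 12 called carriers were called in every fit. The exceptions were Slc12a4, Slc31a1 and Slc49a4.

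For 16 of the tested carriers a further probe set was bright enough to be tested, and 10 of the 16 had the same sign as the first. Of these, 4 belonged to called carriers (Slc38a1, Slc31a1, Slc16a6 and Slc4a7). Of these 4, 0 were themselves called, and 3 had the same sign.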

How the data were processed

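Transcript levels were measured in 4 orbital and 4 global captures, grouped by the tissue source in the labels and numbered by accession order. Per the labels, T7 amplification of the RNA preceded hybridisation to 1-colour Affymetrix RAE230A arrays. As deposited by the authors, each probe set has a linear intensity on each array. The authors had scaled the arrays, as the 2% trimmed means differ by only 0.0039%, and the values were used as deposited. The software that summarised the probes is not given in the sources used here. Since the arrays share a mean, a level is relative to all other transcripts, and uneven amplification can change it.

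Of 15866 probe sets without controls, the 9520 with a mean log2 value at or above the 40th percentile were tested with limma 3.58.1 in R 4.3.3 (lmFit and eBayes with an intensity trend) on log2(intensity + 1). The model held layer alone, and p-values were adjusted by Benjamini-Hochberg over all tested probe sets. The pseudocount understates the change of dim genes. Genes were named from the platform annotation, and all 224 carriers were found in a current RefSeq gene table with 0 symbols changed. The carriers had 277 probe sets in all. RefSeq promoters matched 189 carriers. The files name no genome build.

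Named in the text are all called carriers, the 4 with the smallest p and the 3 brightest of each class, and carriers known from muscle. Carriers outside this rule (further Slc2, Slc45, Slc50, Slc35, Slc25, Slc41, Slc30, Slc20 and Slc5 members, Slc18a2 and the partners in within-array ratios) were chosen after their values were seen. The members, classes and lists were all chosen with earlier results of these data known. Ratios within arrays were compared by exact permutation tests over the captures. Their pairs were formed around called carriers, so these tests are no independent support. The procedure was tested on simulated data.

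Orbital captures 3 and 4 have nearly the same title, but their log2 values differed with an SD of 0.46, beside 0.43 to 0.45 for the other orbital pairs, so both were counted. Whether they are the same tissue amplified again, which would leave 3 orbital samples, is not given in the labels. Alternatives were other normalizations, pseudocounts, filters and variance priors, array weights, the title prefix as a block or each prefix alone, other rules for probe sets, those 2 captures averaged, and each capture left out. Fits with orbital captures 1 and 2 alone and with global captures 2 and 3 alone, and other scalings of the pair ratios, were added after seeing the data.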

Additional observations from a re-analysis of the deposited data

Results flagged for a closer look

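Among the 41 carriers named by rule, each layer's 4 captures were examined for a single capture whose gap to the nearest other exceeded Dixon's 95% limit for 4 values. Of 82 such groups 8 had one, where chance gives about 1 in 20. In the orbital layer, Slc22a17 read 404.8 in capture 2, Slc25a14 read 70.1 in capture 1, and 3 carriers stood high in capture 4: Slc25a13 at 41.3, Slc38a4 at 64.7 and Slc41a3 at 1535.2. In the global layer, Slc22a5 was high in capture 3 at 196.3 and Slc29a1 low there at 79.9, and Slc4a4 was high in capture 1 at 93.4. Of these carriers Slc22a17 was called, and it was called again in each of the 8 fits that left out a capture.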

How the results depend on the processing

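The 12 called carriers kept their direction under every alternative that could be fitted, and all 12 were called again with quantile or cyclic loess normalization, pseudocounts of 16 or 64, robust eBayes and the other rule for the brightest probe set. With the title prefix as a replicate block, fixed or random, 8 were called higher and 4 lower, the same 12. Deviations from the layer means correlated by -0.0055 to 0.11 between captures of the same prefix in different layers and by -0.13 to 0.045 between those of different prefixes. Not every same-prefix value passed 0.1, so captures were not taken as paired. With no filter 11 were called (4.91%, beside 4.36% of all tested genes). With a filter at the 60th percentile 13 were called (16.9% beside 11.5%), among them 10 of the 12, since Slc12a4 and Slc22a3 were then not tested. That filter moved the glucose median to 0.22. Without a trend 10 were called (7.52% beside 5.33%), and with array weights 15 (11.3% beside 8.21%). Under R2 alone, with 2 captures per layer, 1 carrier (Slc4a3) was called higher and 0 lower, by class 0 glucose, 0 amino acid, 0 mitochondrial, 1 ion and 0 other. That is 0.746% of the tested carriers, beside 1.13% of all tested genes. Under R3 alone 2 were higher (Slc4a3 and Slc38a1) and 0 lower, by class 0 glucose, 0 mitochondrial, 1 ion and 0 other. That is 1.5%, beside 1.75% of all tested genes. With orbital captures 1 and 2 alone, 2 carriers were called lower, and the ion class had 3 and the other class 2 called. With global captures 2 and 3 alone, 2 were called lower and the median of the other class was -0.0073. On leaving out each capture, called glucose carriers ranged from 1 to 2 and ion carriers from 3 to 6, where 4.96% to 7.8% of all tested genes were called.

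Changes of sign were seen for 7 uncalled carriers named by rule. Leaving out each capture gave -0.089 to 0.023 for Slc25a12, -0.095 to 0.12 for Slc25a4, -0.052 to 0.42 for Slc2a1, -0.075 to 0.085 for Slc38a2 and -0.40 to 0.19 for Slc8a3. Slc25a12 was 0.026 with quantile normalization. With orbital captures 3 and 4 averaged, Slc25a4 was -0.027 and Slc38a2 was -0.050. Under R2 alone Slc20a1 was -0.15, Slc25a12 was 0.091, Slc25a4 was -0.018 and Slc38a2 was -0.081, and under R3 alone Slc22a5 was -0.10 and Slc2a1 was -0.10. With orbital captures 1 and 2 alone Slc20a1 was -0.017, Slc25a4 was -0.095, Slc38a2 was -0.16 and Slc8a3 was 0.066. With global captures 2 and 3 alone Slc22a5 was -0.035 and Slc38a2 was -0.038. The cause was not tested. Slc12a4, Slc4a4 and Slc8a3 lie close to the background, which limits how small a change could be seen in them.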

Other observations

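Nucleoside carriers, which move adenosine and other nucleosides, had 4 of 6 members tested (Slc28a2, Slc29a1, Slc29a2 and Slc29a3). All 4 differences were above 0, at 0.21 to 0.44, and 0 were called. A second, dimmer Slc29a2 probe set gave -0.19 (95% interval -0.76 to 0.38), of the opposite sign. The choline carrier Slc44a1 differed by 0.51 (95% interval 0.14 to 0.88, adjusted p = 0.095), with global capture 4 at 351.8 among the orbital captures (327.6 to 414.2) and the other global captures at 216.2 to 217.5. It was called without global capture 4, with global captures 2 and 3 alone, with array weights and with the mean of its tested probe sets. A second, dimmer Slc44a1 probe set was itself called (0.81, adjusted p = 0.011), with all orbital captures above all global ones. The potassium-dependent sodium-calcium exchanger Slc24a3 had 0.53 (95% interval 0.07 to 0.98, adjusted p = 0.17) and -0.044 on a second probe set, while Slc8a1, of the sodium-calcium exchangers that do not need potassium, was the member called lower. The calcium-regulated ATP-magnesium carrier Slc25a25 read 735.6 in global capture 3 and between 185.3 and 357.8 in the other 7 captures.

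Some carriers known from other tissues were measured above the filter. The neuronal potassium-chloride cotransporter Slc12a5 read 72.2 to 260.6 in the global and 95.4 to 203.3 in the orbital captures, and the dopamine carrier Slc6a3 read 51.3 to 102.4 and 71.5 to 117.8. Both overlapped between layers (differences 0.23 and 0.30, adjusted p = 0.76 and 0.50). The glycine carrier Slc6a9 read between 14 and 120.3 in the orbital captures, with 2 of them under the control level. Photoreceptor markers also varied widely between captures (36.7 to 1609.9), and their part in these values was not tested.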
